A study of Homo sapiens with 12 samples.

Results

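Genes of the interferon response and of RNA sensing were followed across 12 arrays of the established endometrial adenocarcinoma line Ishikawa, in which every culture had received a transfected siRNA. The list held 39 genes. A probe set, the group of short probes that reads a transcript on the Affymetrix U133 Plus 2.0 array, was taken as a member where the platform annotation gave it the symbol of a listed gene, and each gene was read by its brightest probe set, judged on all 12 arrays together. In this way 38 of the 39 genes, of 19775 genes in all, were measured, and STAT2 was not analysed here.

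Transfection lasted 48 h, with either a negative control siRNA or a GPR54-specific one, and peptide was then given for 24 h, either metastin-10 at 10 µM or a control peptide. Metastin-10 is the short C-terminal fragment of the KISS1 product, and GPR54, the product of KISS1R, is its receptor. Each siRNA was combined with each peptide, which made 4 groups of 3 biological replicates. All 4 groups shared transfection and a peptide, and no group without siRNA was analysed here. The comparisons therefore ask whether these genes stood at different levels between the siRNAs and between the peptides, and not whether transfection itself moved them.

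Double-stranded RNA inside a cell is recognised by several proteins. IFIH1 (MDA5) senses long duplexes in the cytosol, TLR3 senses them in endosomes, and EIF2AK2 (PKR) and the OAS enzymes bind them and shut down translation or activate RNase L. Sensing leads to interferon secretion, and interferon receptors signal through JAK kinases to a complex that contains IRF9 and binds the interferon-stimulated response element, the ISRE. The induced genes include further sensors, so the response feeds itself, and short interfering RNAs are known to set it off in some cells.

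The ISRE core was present in most of the promoters. The core was searched as GAAANNGAAA on both strands in RefSeq promoter windows of 300 bases (250 before and 50 after the transcription start, GRCh38.p14). It was found in 23 of the 30 members that had a window (all but IFIT2, IFITM2, MX2, OAS2, OASL, IRF7, USP18 and GBP2), 76.7%, against 4.38% of 27305 genes and 3.57% of 35116 windows. The GAS core of STAT dimers, searched as TTCNNNGAA, which reads the same on both strands, was found in 12 of the 30, 40.0%, against 9.38% of genes. The stretches below are the 170 bases before the start of 7 members to which the results return, all of which hold an ISRE core. IRF9, to which the results also return, had a window but no ISRE core and is not printed. The stretches are from RefSeq, written 5′ to 3′ on the strand of the gene, with each ISRE match in capitals. Where matches overlap, as in ISG15 and BST2, they appear as 1 longer run of capitals.
DDX60, chr4:168318753-168318922, minus strand: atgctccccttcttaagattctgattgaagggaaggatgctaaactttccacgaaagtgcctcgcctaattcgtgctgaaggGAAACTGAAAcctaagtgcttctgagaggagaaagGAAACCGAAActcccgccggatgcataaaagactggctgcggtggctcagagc
OAS3, chr12:112938304-112938473, plus strand: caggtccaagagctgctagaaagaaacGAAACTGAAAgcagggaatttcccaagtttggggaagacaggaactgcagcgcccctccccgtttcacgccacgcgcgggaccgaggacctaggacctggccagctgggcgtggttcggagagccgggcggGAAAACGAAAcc
ISG15, chr1:1013327-1013496, plus strand: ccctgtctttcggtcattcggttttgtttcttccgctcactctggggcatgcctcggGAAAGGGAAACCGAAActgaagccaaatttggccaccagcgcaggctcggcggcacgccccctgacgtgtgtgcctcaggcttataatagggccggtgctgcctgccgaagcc
IFITM1, chr11:313870-314039, plus strand: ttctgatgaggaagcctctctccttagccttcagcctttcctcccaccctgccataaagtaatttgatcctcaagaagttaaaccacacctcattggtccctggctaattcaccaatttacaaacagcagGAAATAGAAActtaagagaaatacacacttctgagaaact
IFITM3, chr11:320861-321030, minus strand: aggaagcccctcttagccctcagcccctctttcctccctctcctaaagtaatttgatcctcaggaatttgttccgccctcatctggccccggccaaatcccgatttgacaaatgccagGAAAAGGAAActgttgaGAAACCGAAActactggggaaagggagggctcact
BST2, chr19:17405631-17405800, minus strand: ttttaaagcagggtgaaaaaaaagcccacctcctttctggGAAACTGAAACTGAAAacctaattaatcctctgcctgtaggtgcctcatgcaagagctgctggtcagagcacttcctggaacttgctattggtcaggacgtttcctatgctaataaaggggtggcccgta
IFI6, chr1:27672193-27672362, minus strand: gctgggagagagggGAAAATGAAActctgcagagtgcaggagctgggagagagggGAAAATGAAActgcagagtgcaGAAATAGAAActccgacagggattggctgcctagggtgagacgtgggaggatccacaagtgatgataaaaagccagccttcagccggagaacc

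The nearest match lay 53 bases before the start in DDX60, 12 in OAS3, 107 in ISG15, 35 in IFITM3, 124 in BST2 and 93 in IFI6, counted from the first base of the match. In IFITM1 a match began 40 bases before the start, and a further one, not printed, began 6 bases before it and ran across it. A match is a string of letters in a window and does not show that a factor bound there.

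The arrays were alike in scale, with medians between 5.13 and 5.22 on the log2 scale and pairwise correlations between 0.992 and 0.998. Replicate 3 of every group stood apart in the beta-actin 3′ minus 5′ difference, which was 0.29 to 0.36 there and 0.66 to 0.90 in the other 8 arrays. Replicates 1 and 2 of the control siRNA group given metastin-10 stood apart from the other 10 arrays on the second principal component. The targeted gene did not bear out the siRNA label. KISS1R averaged 9.28 ± 0.13 under control siRNA with control peptide (log2, SD, n = 3) and 8.40 ± 0.04 under control siRNA once metastin-10 was given, while under the label GPR54 siRNA it averaged 9.42 ± 0.05 with the control peptide and 9.43 ± 0.16 with metastin-10. KISS1R was thus lowest in control siRNA with metastin-10. The difference was -0.88 for metastin-10 under control siRNA (adjusted p = 0.00213 by limma). With metastin-10, GPR54 siRNA minus control siRNA was 1.03 (adjusted p = 0.000391 by limma). All groups, those of control siRNA included, are therefore called by their label only. The line's epithelial character was visible in its markers. The 10 epithelial markers had means from 7.81 (MUC1) to 13.99 (KRT18), with EPCAM at 13.05. The 10 leukocyte markers had means between 3.41 and 5.57 and the 6 endothelial markers between 3.05 and 6.97. The 8 stromal fibroblast markers lay between 2.56 and 9.84, the highest being COL1A1, which was above MUC1.

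None of the 38 members passed the threshold of an adjusted p of 0.05 in any of 6 comparisons (limma moderated test over 54613 probe sets, Benjamini-Hochberg adjustment). The smallest adjusted p of a member was 0.0822. For comparison, of all genes 0.607% were called for metastin-10 under control siRNA, 0% for metastin-10 under the label GPR54 siRNA, 0% for the siRNA label with control peptide (29 of the 54613 probe sets passed, none of them the brightest of a gene), 1.04% for the siRNA label with metastin-10, 0.106% for the interaction and 0.425% for the siRNA label averaged over peptides. With such shares among 38 genes, a count of 0 is near the background. At an unadjusted p of 0.05 the members past it numbered, in the same order, 9 (23.7%, against 11.9% of all genes), 1 (2.63% against 1.81%), 0 (against 2.80%), 13 (34.2% against 13.1%), 7 (18.4% against 6.28%) and 9 (23.7% against 10.3%).

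The 25 further probe sets of 18 members gave 0 calls in each comparison. Their difference had the sign of the brightest probe set in 14 of 25 cases for metastin-10 under control siRNA, 12 under the label GPR54 siRNA, 14 for the siRNA label with control peptide and 16 with metastin-10.

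**Figure D1:**
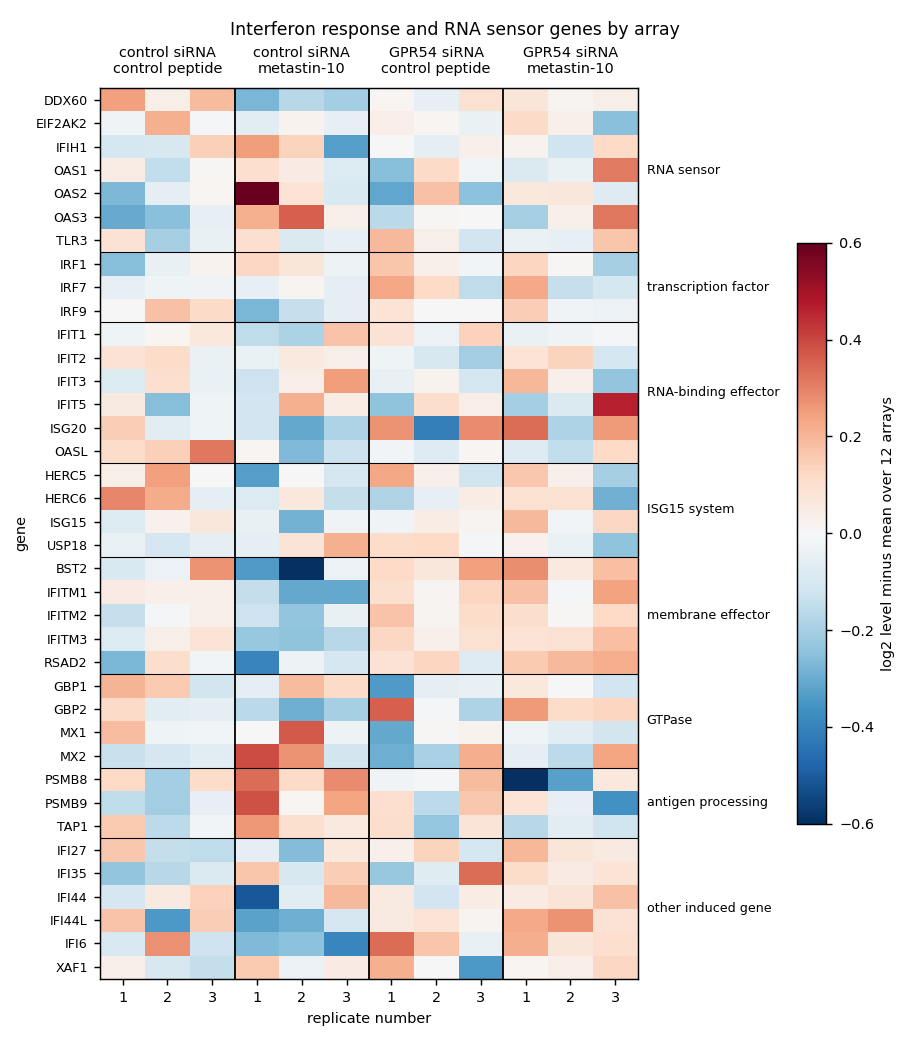
Log2 level of each of the 38 genes (rows, grouped by role) in each of the 12 arrays (columns, 3 replicates per group), as the difference from the gene's mean over the 12 arrays. Blue cells gather in the control siRNA with metastin-10 columns for IFITM1, IFITM3, DDX60 and IFI6, while most other rows show no block of colour that follows a group.

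The siRNA label was compared first with the control peptide, where the arrays differ by the siRNA label alone. The median log2 difference, GPR54 siRNA minus control siRNA, was 0.037 over the members (0.011 to 0.053 with 1 array left out at a time), and 0.022 over all genes. All 38 of the 95% intervals lay within 1.5-fold in either direction, the outermost bounds being -0.49 and 0.46 on the log2 scale. The groups of 3 did not overlap for USP18, which was higher under the label GPR54 siRNA (6.34% of genes were so), and for OASL, which was lower (2.90%). These intervals are per gene and cover the spread between cultures, and for dim probe sets RMA values can compress a true change.

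**Figure D2:**
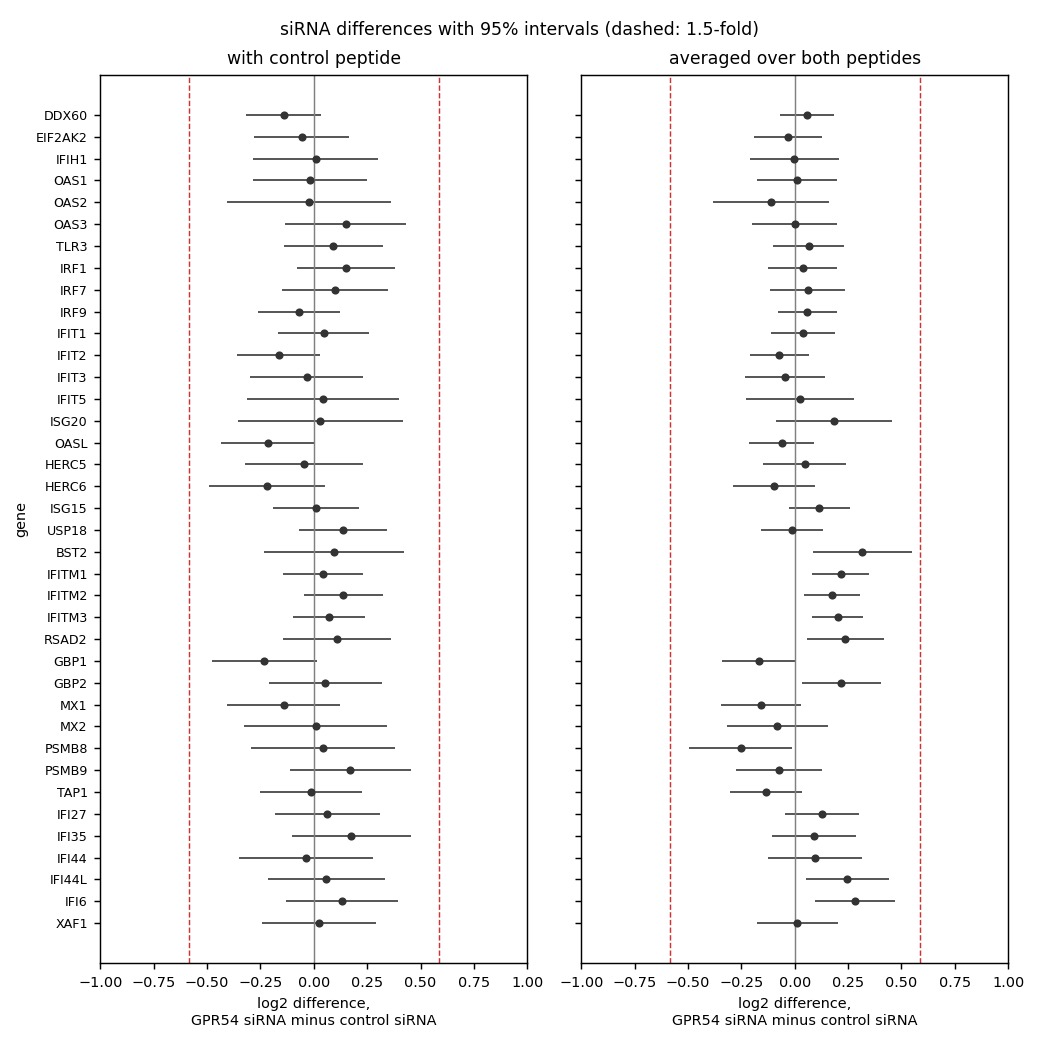
Log2 difference (GPR54 siRNA minus control siRNA) of each gene with its 95% interval, with control peptide on the left and averaged over both peptides on the right, dashed lines marking 1.5-fold. All 38 intervals lie inside the dashed lines in both panels.

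Of the 7 RNA sensors, EIF2AK2 was read well above the level of tissue-restricted genes. EIF2AK2, the kinase that stops translation by phosphorylating an initiation factor, stood at 8.62, 8.85 and 8.63 in control siRNA with control peptide (log2, replicates 1 to 3), at 8.58, 8.66 and 8.59 in control siRNA with metastin-10, at 8.68, 8.65 and 8.60 under the label GPR54 siRNA with control peptide, and at 8.76, 8.67 and 8.39 under that label with metastin-10. All 4 groups overlapped. Its log2 difference between the siRNA labels was -0.057 with control peptide (SE 0.10, 95% interval -0.28 to 0.17, adjusted p = 0.9998 by limma) and -0.031 averaged over peptides (interval -0.19 to 0.13).

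IFIH1 and TLR3, the cytosolic and endosomal sensors of long duplex RNA, were both at the dim end of the array. IFIH1 ranged from 2.35 to 2.93 and TLR3 from 2.42 to 2.81 over the 12 arrays. For orientation, 24 genes restricted to other tissues had levels of which the 90th percentile was 5.45, and 17 of the 38 members lay below it. Below that level a value may be mostly background, and a difference there has little meaning for expression. Averaged over peptides, the difference between the siRNA labels was -0.0013 for IFIH1 and 0.065 for TLR3, with intervals of -0.21 to 0.21 and -0.10 to 0.23.

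The OAS genes encode enzymes that make the messenger activating RNase L. OAS1 ranged from 3.57 to 4.14, OAS2 from 4.05 to 5.02 and OAS3 from 4.82 to 5.48, all dim by the same measure except for a single array of OAS3. OAS3 stood at 4.82, 4.87 and 5.08 in control siRNA with control peptide and at 5.34, 5.48 and 5.16 with metastin-10. The 3 metastin-10 arrays were the higher ones, with no overlap, and the difference of 0.40 (SE 0.13) did not pass (adjusted p = 0.287 by limma). Under the label GPR54 siRNA the values were 4.96, 5.13 and 5.13 with control peptide and 4.93, 5.16 and 5.44 with metastin-10, which overlapped (difference 0.10). Metastin-10 under control siRNA gave differences of 0.057 for OAS1 and 0.32 for OAS2, with adjusted p of 0.911 and 0.556.

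DDX60, a helicase that assists cytosolic RNA sensors, had the smallest p of the members for metastin-10 under control siRNA. All 12 of its values lay below the 5.45 level of dim genes, so its difference has the limit given above. Its level was 4.99, 4.78 and 4.94 with control peptide and 4.47, 4.58 and 4.54 with metastin-10. Under the label GPR54 siRNA it was 4.75, 4.69 and 4.83 with control peptide and 4.81, 4.76 and 4.78 with metastin-10. The 3 arrays of control siRNA with metastin-10 lay below the other 9. The difference was -0.37 (SE 0.08, 1.30-fold lower, adjusted p = 0.0840 by limma) and missed the threshold. It passed when replicate 3 was blocked as a batch (adjusted p = 0.0459) or when the probe sets of each gene were averaged before the fit (0.0301), with the same difference in both. DDX60 has 1 probe set, so averaging left its own values unchanged. With 1 array left out at a time its adjusted p by limma ran from 0.0821 to 0.317. The test of the difference between the 2 peptide effects gave 0.40 with an adjusted p of 0.478.

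**Figure D3:**
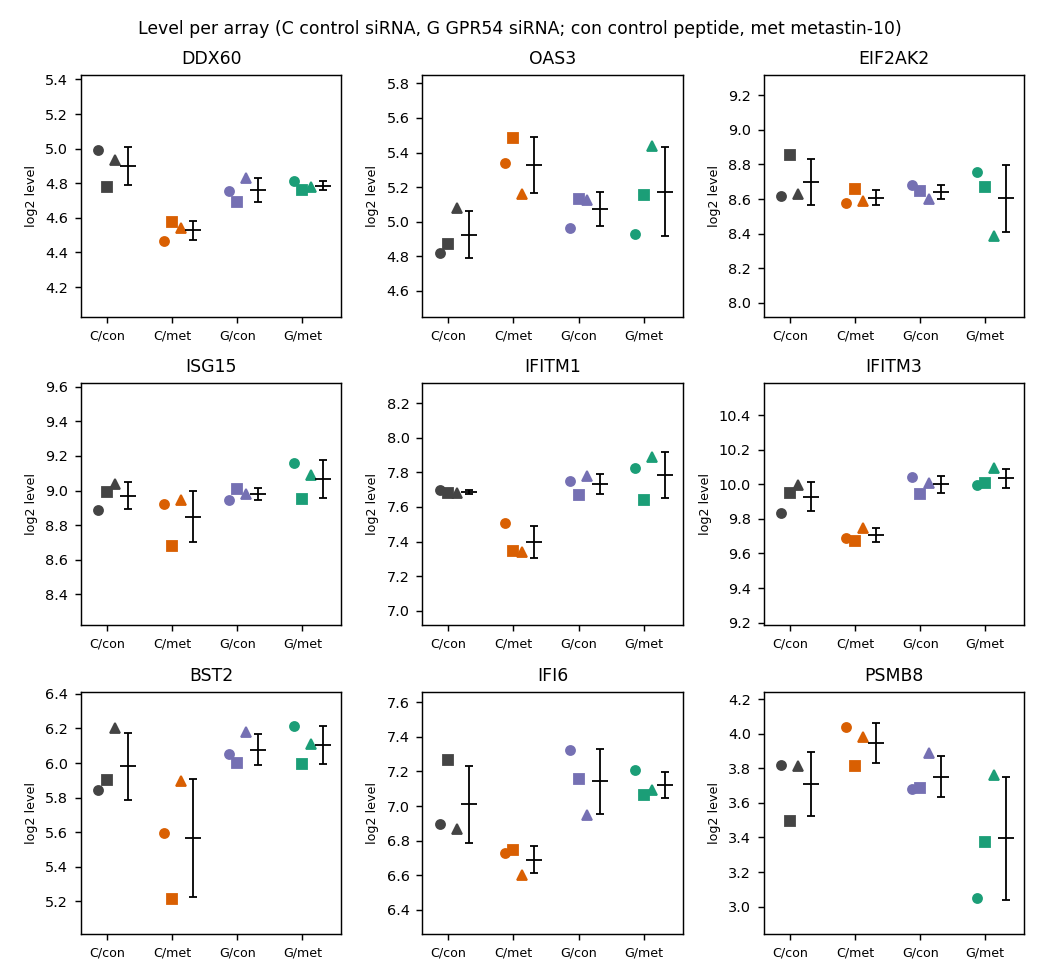
Log2 level of 9 genes in each array, circles, squares and triangles being replicates 1, 2 and 3, with the group mean and SD (n = 3) as a bar to the right of each group; every panel spans 1.4 log2 units. DDX60, IFITM1, IFITM3 and IFI6 are lowest in control siRNA with metastin-10 (C/met), OAS3 has high points there, and EIF2AK2 and ISG15 overlap in all or most groups.

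Of the 4 transcription factors listed, 3 were measured and none passed. IRF9, the DNA-binding subunit of the ISRE-binding complex, stood at 6.41, 6.59 and 6.52 in control siRNA with control peptide and at 6.13, 6.27 and 6.35 with metastin-10. The 3 arrays with metastin-10 were below the other 9, whose lowest value was 6.37 (difference -0.25, adjusted p = 0.324 by limma). A probe set annotated to both RNF31 and IRF9, which belongs to no member by the rule, gave -0.057 there, and its groups overlapped. IRF1, induced by several cytokines, ranged from 6.16 to 6.58, and IRF7, the factor that amplifies interferon production, from 6.47 to 6.85. Their differences for metastin-10 under control siRNA were 0.15 and 0.0058, and their differences between the siRNA labels averaged over peptides were 0.037 and 0.061.

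Among the effectors that bind or degrade viral RNA, none passed. IFIT1, which binds RNA lacking the cap methylation of host messages, ranged from 8.27 to 8.63, IFIT2 from 7.59 to 7.94 and IFIT3 from 6.98 to 7.47 over the 12 arrays, while IFIT5 ranged from 3.85 to 4.57. IFIT2 was among the 3 smallest p for the siRNA label with control peptide, with a difference of -0.16 (adjusted p = 0.9998 by limma), and for metastin-10 under the label GPR54 siRNA, with 0.15. OASL, an OAS relative without the enzymatic activity, stood at 7.14, 7.17 and 7.34 in control siRNA with control peptide, above 7.04, 6.76 and 6.90 with metastin-10 (difference -0.32, SE 0.10, adjusted p = 0.270) and above all 3 arrays of either group under the label GPR54 siRNA except the 7.15 of replicate 3 with metastin-10. ISG20, an RNA exonuclease, ranged from 4.92 to 5.66.

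ISG15 is a ubiquitin-like protein that is joined to other proteins by HERC5 and taken off by USP18. ISG15 stood at 8.89, 8.99 and 9.03 in control siRNA given control peptide, 8.92, 8.68 and 8.94 with metastin-10, 8.95, 9.01 and 8.98 under the label GPR54 siRNA with control peptide, and 9.16, 8.95 and 9.09 under that label with metastin-10. HERC5 ranged from 6.91 to 7.49, HERC6 from 5.42 to 6.01 and USP18 from 7.71 to 8.17. Under the label GPR54 siRNA, metastin-10 minus control peptide was -0.16 for USP18 (SE 0.09, 95% interval -0.36 to 0.05).

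Of the effectors at membranes, IFITM1, IFITM2 and IFITM3 block virus entry, BST2 (tetherin) holds budding virus at the cell surface and RSAD2 (viperin) acts at the endoplasmic reticulum. For all 5 the 3 arrays labelled GPR54 siRNA were above the 3 control siRNA arrays when metastin-10 was present. Over the 38 members this held for 11 in that direction and 2 in the other, against 11.2% and 6.35% of all genes. BST2, RSAD2 and IFITM2 were named here after their values were seen.

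IFITM1 stood at 7.70, 7.68 and 7.68 in control siRNA with control peptide and at 7.51, 7.34 and 7.34 with metastin-10. Under the label GPR54 siRNA it was 7.75, 7.67 and 7.78 with control peptide and 7.83, 7.64 and 7.89 with metastin-10. The low values were those of control siRNA with metastin-10, and the other 3 groups overlapped. With metastin-10 the siRNA difference was 0.39 (SE 0.09, 1.31-fold, adjusted p = 0.0822 by limma), and with control peptide it was 0.044.

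IFITM3 stood at 9.84, 9.95 and 10.00 in control siRNA with control peptide, at 9.69, 9.67 and 9.75 with metastin-10, at 10.04, 9.95 and 10.01 under the label GPR54 siRNA given control peptide and at 10.00, 10.01 and 10.10 with metastin-10. Again the arrays of control siRNA with metastin-10 were below the other 9. The siRNA difference with metastin-10 was 0.33 (SE 0.08, adjusted p = 0.101 by limma). IFITM2 gave 0.21 in the same comparison (adjusted p = 0.419). The sequences of the IFITM genes are close and their probe sets can bind transcripts of one another, so the 3 are not independent readings. A further probe set annotated to both IFITM1 and IFITM2, which belongs to no member by the rule and was chosen after its value was seen, gave 0.41 with an adjusted p of 0.0384. The shared probe set of RNF31 and IRF9 gave -0.16 in the same comparison (adjusted p = 0.792 by limma).

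BST2 varied widely within a group. It stood at 5.84, 5.90 and 6.20 in control siRNA with control peptide and at 5.59, 5.21 and 5.90 with metastin-10, and the groups overlapped. Under the label GPR54 siRNA it lay between 5.99 and 6.21 in all 6 arrays. With metastin-10 the siRNA difference was 0.54 (SE 0.15, adjusted p = 0.203 by limma), and without replicates 1 and 2 of the control siRNA group given metastin-10 it was 0.21. RSAD2, which ranged from 4.47 to 5.09 and so was dim, gave 0.37 in the same comparison (adjusted p = 0.287 by limma). Its other probe set gave 0.034.

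IFI6, a mitochondrial and reticular protein that limits cell death, was also lowest in the 3 arrays of control siRNA with metastin-10. It stood at 6.90, 7.27 and 6.86 in control siRNA given control peptide, 6.73, 6.75 and 6.60 with metastin-10, 7.32, 7.16 and 6.95 under the label GPR54 siRNA given control peptide and 7.21, 7.07 and 7.09 with metastin-10. The siRNA difference with metastin-10 was 0.43 (SE 0.12, adjusted p = 0.200 by limma) and averaged over peptides 0.28 (adjusted p = 0.309). Of the other induced genes without an enzyme role, IFI27 ranged from 5.35 to 5.81, IFI35 from 4.90 to 5.47, IFI44 from 5.81 to 6.52, IFI44L from 4.58 to 5.19 and XAF1 from 3.05 to 3.61.

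The GTPases were read at mixed levels. MX1 and MX2, which block early steps of virus replication, ranged from 3.65 to 4.32 and from 4.06 to 4.75. GBP1 and GBP2, which attack vacuoles of microbes, ranged from 6.54 to 7.09 and from 5.90 to 6.55. GBP1 was among the 3 smallest p for the siRNA label with control peptide. It stood at 7.09, 7.04 and 6.77 in control siRNA and 6.54, 6.82 and 6.84 under the label GPR54 siRNA, which overlapped (difference -0.23, SE 0.11, adjusted p = 0.9998 by limma).

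The 3 antigen processing members lay the other way from the membrane effectors for the siRNA label with metastin-10. This did not hold for the 16 genes of the MHC class I pathway list, described below. Of those, 15 were above 0 in that comparison, with a median of 0.15. PSMB8 and PSMB9 are catalytic subunits of the immunoproteasome and TAP1 carries peptides into the endoplasmic reticulum. PSMB8 stood at 3.82, 3.49 and 3.81 in control siRNA given control peptide, 4.04, 3.81 and 3.98 with metastin-10, 3.68, 3.69 and 3.89 under the label GPR54 siRNA given control peptide and 3.05, 3.37 and 3.76 with metastin-10. Given metastin-10, arrays under the label GPR54 siRNA were below those of control siRNA (difference -0.55, SE 0.16, adjusted p = 0.206 by limma). With 1 array left out at a time the difference ran from -0.73 to -0.38. The adjusted p then ran from 0.0347, without replicate 3 of the label GPR54 siRNA with metastin-10, to 0.590. The value under the label GPR54 siRNA for metastin-10 against control peptide was -0.36, and the interaction was -0.59 (adjusted p = 0.668). PSMB9 and TAP1, named after their values were seen, gave -0.32 and -0.26 for the siRNA label with metastin-10. All 3 lie below the 5.45 level of dim genes.

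**Figure D4:**
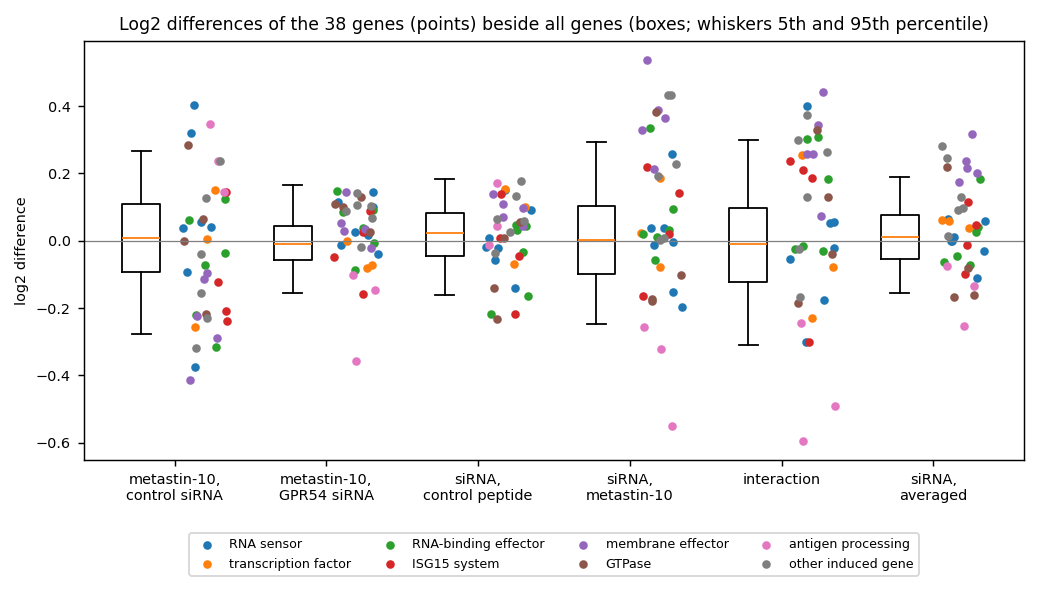
Log2 differences of the 38 genes (points, coloured by role) in the 6 comparisons beside all genes (boxes, median and quartiles; whiskers, 5th and 95th percentile). The points have an SD of 0.213 for metastin-10 under control siRNA, 0.237 for the siRNA label with metastin-10 and 0.252 for the interaction. These comparisons use the control siRNA with metastin-10 arrays. The SD was 0.104 to 0.135 in the other 3 comparisons, and of these the average over peptides (0.135) uses those arrays too. The median half-width of the members' 95% intervals was 0.37 for the interaction, 0.19 for the average and 0.26 in the rest. For the siRNA label with metastin-10, the membrane effectors and PSMB8, PSMB9 and TAP1 lie on opposite sides of 0.

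The comparisons of metastin-10 under control siRNA and of the siRNA label with metastin-10 share the 3 arrays of control siRNA with metastin-10, so a level that is low there is lower in the first and higher in the second. Of the members, 5 (IFI6, IFITM1, IFITM3, DDX60 and IRF9) were below all 9 other arrays there, 13.2% against 5.49% of all genes, and 0 were above, against 1.77%. For metastin-10 under control siRNA the groups did not overlap for 9 members that were lower and 2 that were higher, against 10.9% and 8.72% of genes. The median over members was -0.038 for that comparison and 0.028 for the siRNA label with metastin-10 (0.028 to 0.079 with 1 array left out at a time), while over all genes it was 0.0072 and 0.00074. For the interaction it was 0.066, and -0.0089 over all genes.

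Averaged over peptides, the siRNA label gave a median of 0.038 over the members, against 0.011 over all genes. At an unadjusted p of 0.05, 8 of the 38 members were higher and 1, PSMB8, was lower, against 7.65% and 2.68% of all genes. With control peptide alone 0 members were past it, against 2.80% of genes, and with metastin-10 alone 13 were, against 13.1%. The outermost 95% bounds were -0.49 and 0.55 on the log2 scale, inside 1.5-fold for 38 of 38. Metastin-10 under the label GPR54 siRNA gave a median of 0.031, against -0.0097 over all genes, and the member past an unadjusted p of 0.05 was PSMB8. IFI44L and RSAD2, both dim, were higher there with no overlap, where 2.33% of genes were.

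The differences were also split by level. For metastin-10 under control siRNA the 17 dim members had a median of 0.12 and the 13 members brighter than every tissue-restricted gene (above 6.78) had -0.095, with 11 of the 13 below 0. The 8 members between these levels had the lowest median, -0.18, with 6 of the 8 below 0, so the members' medians did not follow level in order. All genes of the dim, bright and middle classes had medians of 0.084, -0.038 and -0.011, and 63.1% of the bright genes were below 0. The 23 members with an ISRE core had a median of -0.091 and the 7 with a window but no core had 0.13. Their ranges overlapped, from -0.41 to 0.40 with a core and from -0.25 to 0.35 without, the lowest there being IRF9. The 10 epithelial markers averaged 10.65 to 10.74 in the control siRNA with metastin-10 arrays and 10.89 to 11.00 in the other 9, and the 10 leukocyte markers 4.37 to 4.49 and 4.17 to 4.42, which overlapped. Every array came from the Ishikawa line, and in bulk RNA fewer cells with a transcript and less of it per cell cannot be told apart. The part of level, of the ISRE core and of these markers in the members' differences was not tested.

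Other genes of the pathway, from lists chosen with earlier results of these data known, gave the following. Of 24 genes of the sensing pathway, 18 interferon ligands, 16 receptor and JAK-STAT genes and 44 other interferon-induced genes, 0 were called in each of the 6 comparisons. For metastin-10 under control siRNA, 17 of the 18 ligands, all of them dim with means from 2.58 to 5.08, were above 0 with a median of 0.11, against a median of 0.084 for dim genes. The smallest p there was that of IFNK with a difference of 0.33 (adjusted p = 0.247 by limma). In the sensing pathway TLR9, an endosomal sensor of DNA, gave 0.44 (adjusted p = 0.326 by limma). It too was dim, ranging from 4.61 to 5.35 over the arrays. Among other induced genes LGALS3BP gave -0.33 for metastin-10 under control siRNA (adjusted p = 0.0992) and 0.29 for the siRNA label with metastin-10 (adjusted p = 0.155).

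Calls were found in the last of these lists, the MHC class I pathway, which presents peptides and is induced by interferon. Of its 16 genes 1 was called for metastin-10 under control siRNA and 2 for the siRNA label with metastin-10, against 0.607% and 1.04% of all genes, and 1 averaged over peptides, against 0.425%. HLA-B stood at 10.43, 10.51 and 10.50 in control siRNA given control peptide, 10.09, 10.04 and 10.07 with metastin-10, 10.56, 10.58 and 10.66 under the label GPR54 siRNA given control peptide and 10.50, 10.62 and 10.72 with metastin-10. The 3 arrays of control siRNA with metastin-10 were the low ones. The difference was -0.41 (SE 0.08, adjusted p = 0.0445 by limma) for metastin-10 and 0.55 (SE 0.08, 1.46-fold, adjusted p = 0.00671) for the siRNA label with metastin-10, and 0.33 averaged over peptides (adjusted p = 0.0301). HLA-C gave 0.51 (adjusted p = 0.0142) for the siRNA label with metastin-10 and -0.38 (adjusted p = 0.0884) for metastin-10. Transcripts of HLA genes are alike and their probe sets can bind more than 1 of them, so the pair is uncertain as separate genes. For the siRNA label with metastin-10 the other 2 probe sets of HLA-B did not pass (adjusted p = 0.0864 and 0.0548 by limma). The calls of HLA-B and HLA-C in that comparison were lost without replicate 3 of every group (0.0548 and 0.0826), in a fit restricted to the pair of groups (0.122 and 0.181) and with the probe set of largest SD (0.0548 and 0.0656). The call of HLA-B for metastin-10 was lost in the same 3 settings and with the mean of probe sets (0.0679 to 0.198), and its averaged call without replicate 3 of every group (0.136) and with the largest SD (0.163). Leaving out 1 array at a time, the call of HLA-B for metastin-10 was lost for 10 of the 12 arrays (adjusted p from 0.0343 to 0.222) and that averaged over peptides for 11. Its call for the siRNA label with metastin-10 was kept for all 12, and that of HLA-C was lost without replicate 2 of the label GPR54 siRNA with metastin-10 (adjusted p = 0.0846). Without replicates 1 and 2 of the control siRNA group given metastin-10 the adjusted p of HLA-B was 0.611 for metastin-10 and 0.303 for the siRNA label, with differences of -0.41 and 0.54.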

How the data were processed

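The single deposited table holds log2 values that the authors obtained with RMA, as named in the submitters' processing notes. A software version is not given in the sources used here. It held 54675 probe sets, of which 62 controls were left out and 54613 tested with no filter on level. Quantile normalization, a step of RMA, hides any shift that most genes share, and detection calls were not used here. The number of arrays limits the precision.

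Group means were fitted with limma 3.58.1 in R 4.3.3 over all 12 arrays (8 residual degrees of freedom), with 6 contrasts, two-sided tests, Benjamini-Hochberg adjustment over all probe sets and a threshold of 0.05. The fit was checked on simulated data. Symbols came from the platform annotation, 0 of 41037 changed on lookup by Entrez identifier. Members and lists were chosen with earlier results of these data known. Named with contrast values were called members, the 3 smallest p per contrast, the sensors and the transcription factors, and in the other lists called genes or the 2 with the smallest p; exceptions are marked. Promoter sequences were taken from RefSeq (GRCh38.p14).

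The labels do not say that a replicate number is shared. Same-numbered arrays correlated in their deviations by over 0.1 in all 3 pairs for metastin-10 under control siRNA (0.17 to 0.44), under the label GPR54 siRNA (0.26 to 0.52) and for the siRNA label with control peptide (0.11 to 0.54), but not for the siRNA label with metastin-10 (-0.15 to 0.26). Alternatives were the replicate block, a batch block, arrays left out, the variance model, array weights, a level filter, centring, the choice of probe set and the set over which p was adjusted.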

Additional observations from a re-analysis of the deposited data

How the results depend on the processing

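The number of members called stayed at 0 in every setting for metastin-10 under the label GPR54 siRNA, for the siRNA label with control peptide, for the interaction and for the siRNA label averaged over peptides. For metastin-10 under control siRNA it was 1 (DDX60) with replicate 3 as a batch block and 1 (DDX60) with the mean of all probe sets of a gene. For the siRNA label with metastin-10 it was 1 with replicate 3 as a batch block (IFITM3), 1 with a variance trend and robust fit (IFITM3), 4 with array weights (IFI44L, IFITM3, BST2 and PSMB8), 2 with the level filter, 2 with the mean of probe sets (IFITM1 and IFITM3 in both) and 1 (IFITM1) with adjustment over 1 probe set per gene, and 0 to 1 when arrays were left out in turn. In that comparison calls over all features went from 316 to 2016 with array weights, 597 with the level filter and 525 with the variance trend. The array weights rested largely on replicate 2 of the label GPR54 siRNA with metastin-10, weighted 4.37 against 0.75 and 0.39 for replicates 1 and 3. Replicates 1 and 2 of the control siRNA group given metastin-10 were left out together as a setting added after seeing the data. The cause of these changes was not tested.

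With the replicate block, 0 members were called for metastin-10 under control siRNA and 1 (IFITM1) for the siRNA label with metastin-10, whose same-numbered arrays do not all pair. Over all probe sets the block moved the calls from 234 to 422 for metastin-10 under control siRNA, from 29 to 51 for the siRNA label with control peptide, from 316 to 504 with metastin-10, from 28 to 45 for the interaction and from 145 to 257 averaged. The batch block gave 532, 87, 602, 73 and 309. Replicates 1 and 2 only gave 179, 0, 396, 2 and 93, and without replicates 1 and 2 of the control siRNA group given metastin-10 the counts were 1, 17, 12, 0 and 13. Fitting only the groups compared gave 77, 9 and 57 for the first 3.

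The median over members for metastin-10 under control siRNA was -0.11 with replicates 1 and 2 only, -0.14 with the level filter, 0.027 with the probe set of largest SD and 0.0049 with the mean of probe sets, and -0.071 to -0.011 with arrays left out in turn. Under the label GPR54 siRNA it was 0.0052 with array weights and 0.012 to 0.066 with arrays left out. For the siRNA label with metastin-10 it was 0.097 with replicates 1 and 2 only and 0.16 with the level filter. For the interaction it was 0.17 with replicates 1 and 2 only, 0.092 with array weights, 0.20 with the level filter, 0.087 with centring, -0.019 with largest SD, 0.0010 with the mean of probe sets, 0.11 without the 2 arrays named above, and 0.048 to 0.13 with arrays left out.

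Single genes that changed sign did so for the siRNA label averaged over peptides. GBP2 was -0.064 and IRF1 -0.021 with the largest SD. OAS1 was -0.077 with replicates 1 and 2 only, -0.00052 with array weights, -0.050 with largest SD and -0.020 with the mean. EIF2AK2 was 0.012 with replicates 1 and 2 only. IFIH1 was 0.0100 with centring, 0.0051 with the mean and 0.17 without the 2 arrays, and OAS3 was 0.010, 0.0091 and 0.082 in the same settings. OAS2 was 0.044 without the 2 arrays. With arrays left out in turn IFIH1 ran from -0.088 to 0.057, OAS1 from -0.052 to 0.061, OAS2 from -0.19 to 0.00042, OAS3 from -0.067 to 0.061, IRF1 from -0.0035 to 0.082 and EIF2AK2 from -0.069 to 0.023.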
